A study of Homo sapiens with 12 samples.

Results

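The genes described here belong to the integrated stress response and the unfolded protein response, 2 linked programmes by which a cell answers misfolded protein, missing amino acids and other insults. They were taken as the rows of the deposited gene table whose identifiers map to 48 listed symbols. The mapping used no measured value, but the list was drawn up with earlier results of these data known. Of the 63541 gene IDs in the table, 47 were members, and SESN2, the remaining symbol, was not analysed here. The study asked what follows the loss of snaR-A, a short noncoding RNA, in HEK293T cells, a line derived from human embryonic kidney. Cells received 12.5 nM of siRNA for 48 h, namely si-snaR-A#1, si-snaR-A#2, si-snaR-A#3 or the scramble control, and each of the 4 groups had 3 replicate libraries. The siRNAs against snaR-A are written #1, #2 and #3 from here on. No other allele or agent separated the groups, and all of them, scramble included, were transfected. The 3 active siRNAs are aimed at overlapping positions of the same short RNA, and those of #2 and #3 nearly coincide, which makes them related rather than independent reagents. All cells came from a single line. The methods of the study call the replicates of its genomic work biological and place their handling on a single day, so the p-values measure the spread between libraries of that day.

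In the integrated stress response, kinases that each sense a different insult phosphorylate the initiation factor eIF2alpha, which lowers most protein synthesis while favouring translation of ATF4. ATF4 then switches on genes of amino acid synthesis, amino acid uptake and tRNA charging, together with factors such as DDIT3 (CHOP) that can lead to cell death. The unfolded protein response of the endoplasmic reticulum (ER) runs through PERK, IRE1 and ATF6 and raises the chaperones and degradation factors that handle misfolded protein. Gene-level RNA counts cannot see eIF2alpha phosphorylation, ATF4 translation, ATF6 cleavage or the splicing of XBP1.

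The short promoter stretches below are shown because the ER chaperones, the largest role group here, are the textbook carriers of the ER stress response elements. RefSeq promoters on GRCh38.p14, from 250 bases before to 50 after each start, were found for 42 of the 47 members. The element ERSE (CCAAT, 9 bases of any kind, then CCACG, on either strand) was present in 7 of these 42 members (16.7%) against 25 of 27305 genes overall (0.0916%), and ERSE-II (ATTGG, any base, then CCACG, on either strand) in 3 (7.14%) against 0.0696% overall. Both share the letters CCACG. The members were listed as genes of these pathways, so shares above those of all genes were built into the list and are no result. Each line gives a 30-base window upstream of the start, read 5′ to 3′ on the strand of the gene, with the matched letters in capitals. Where the match lies on the opposite strand, the capitals are its reverse complement, as in CALR. HSP90B1 held a further ERSE and HYOU1 a further ERSE-II, not shown.
HSPA5 (chr9:125241385-125241414, minus strand): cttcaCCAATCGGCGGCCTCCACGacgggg
HSP90B1 (chr12:103930211-103930240, plus strand): cctgaCCAATCGGAAGGAGCCACGcttcgg
CALR (chr19:12938379-12938408, plus strand): ccacgCGTGGTCGACCATCATTGGtcggtg
CANX (chr5:179698773-179698802, plus strand): cccggCCAATCTTCACACTCCACGaagaat
PDIA6 (chr2:10812847-10812876, minus strand): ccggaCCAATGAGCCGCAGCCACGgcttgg
CRELD2 (chr22:49918549-49918578, plus strand): cctctCGTGGCGAACTCGGATTGGgccata
XBP1 (chr22:28800597-28800626, minus strand): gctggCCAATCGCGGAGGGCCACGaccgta
HERPUD1 (chr16:56932016-56932045, plus strand): cggacgccgATTGGGCCACGttgggagagt
SDF2L1 (chr22:21642105-21642134, plus strand): cctcggaagCGTGGACCAATcaaaaccctc
HYOU1 (chr11:119057370-119057399, minus strand): gccccgtgaCGTGGTCCAATcccaggccga

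A core of the amino acid response element to which ATF4 binds (CARE, searched as TTNCATCA on either strand) was found in 9 of the 42 members (21.4%) against 4.46% of genes. The 4 windows below are from an asparagine and a glutathione enzyme and from 2 tRNA synthetases of the list. The XBP1-type element UPRE (TGACGTGG, either strand) was found in HYOU1 alone among the members (2.38% against 0.927% of genes), where it overlaps an ERSE-II. These are matches of letters in a window, and nothing was measured at them. The share of CARE among the members, too, was built into how they were listed.
ASNS (chr7:97872458-97872487, minus strand): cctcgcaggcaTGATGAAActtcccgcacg
CHAC1 (chr15:40953251-40953280, plus strand): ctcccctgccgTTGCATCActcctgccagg
AARS1 (chr16:70289675-70289704, minus strand): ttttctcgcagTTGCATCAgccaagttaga
GARS1 (chr7:30594834-30594863, plus strand): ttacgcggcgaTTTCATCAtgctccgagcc

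Library totals lay between 120.4 and 180.1 M estimated counts, and the least abundant member still had 64 counts in its lowest library. Replicates differed by more than counting error (chi-square per degree of freedom 13.0 to 63.1 over 12 replicate pairs). Normalisation (TMM) factors were 1.032 to 1.089 with #1 and 0.956 to 1.026 in the other 9 libraries. The extent of the knockdown could not be read from these counts, since 0 gene symbols starting with SNAR were in the table. In the study, RT-qPCR showed lower snaR-A with each of the 3 siRNAs. Of 5 embryonic kidney factors looked up, PAX2, SIX2 and WT1 averaged over 1 CPM (counts scaled to the size of the library) and PAX8 and LHX1 did not. The sum of the 5 was 34.5 to 35.9 CPM in scramble, 41.3 to 46.0 CPM with #1, 34.8 to 36.0 CPM with #2 and 38.3 to 40.7 CPM with #3, so that #1 and #3 lay above scramble. The sum of 5 epithelial genes (KRT8, KRT18, EPCAM, CDH1 and CLDN6) was 49.8 to 53.0 CPM in scramble, 46.8 to 51.9 CPM with #1, 44.5 to 46.6 CPM with #2 and 51.3 to 54.5 CPM with #3, so that #2 lay below scramble. Among them CDH1 was called lower with all 3 siRNAs, CLDN6 lower with #2 and #3, and KRT18 higher with #3. Of the kidney factors, SIX2 was called higher with #1 and #3, PAX2 higher with #1 and LHX1 lower with #3. WT1 was called with none of the siRNAs, and PAX8 was too low to be tested. Each of 3 leukocyte, 3 endothelial and 2 hepatocyte markers averaged under 1 CPM, while the fibroblast collagens COL1A1 and COL3A1 and the matrix gene LUM were present at a summed 34.4 to 36.6 CPM in scramble, 33.1 to 34.8 CPM with #1, 33.0 to 37.9 CPM with #2 and 30.6 to 31.6 CPM with #3, which lay below scramble. Within that fibroblast sum the genes went opposite ways. COL1A1 was called lower and COL3A1 higher with all 3 siRNAs, and LUM was called higher with #2 and #3. Their log2 fold changes with #3 were -0.90, 0.81 and 0.85. The part of these markers in the results was not tested. In such bulk RNA, fewer cells of a type and less RNA per cell cannot be told apart.

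All 47 members were expressed well enough to be tested, at means of 0.925 to 1319 CPM over the 12 libraries. In scramble, per kilobase of canonical transcript, the highest levels were those of HSP90B1 (408 CPM per kb), ATF4 (343), HSPA5 (214), CALR (201) and PHGDH (184), and the lowest those of NUPR1 (0.170), CHAC1 (1.06) and SLC7A11 (1.57). HSP90B1, HSPA5 and CALR are ER chaperones, and PHGDH opens the path to serine. Replicates were close, with a median within-group SD of 0.0709 log2 units and a highest SD of 0.176, for SLC7A11.

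With #2 and #3 most of the members that changed were higher than in scramble, and with #1 they went either way. A gene was called when its adjusted p was under 0.05 in edgeR's quasi-likelihood test (Benjamini-Hochberg adjustment over 21999 genes). With #1, 31 of 47 members (66.0%) were called, 15 higher and 16 lower, where 45.2% of all genes tested were called. With #2, 29 members (61.7%) were called, 24 higher and 5 lower, against 25.8% of all genes. With #3, 35 members (74.5%) were called, 31 higher and 4 lower, against 29.4% of all genes. Higher calls made up 21.9%, 13.7% and 16.5% of all genes tested for the respective siRNAs, and lower calls 23.3%, 12.1% and 13.0%.

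Calls were more frequent among expressed genes. Of the genes averaging 1 CPM or more, tested alone, 62.2% were called with #1, 40.3% with #2 and 44.6% with #3. The 46 members in that set were called in 69.6%, 67.4% and 73.9% of cases. The share with #1 was thus near that of expressed genes in general, while with the other 2 siRNAs it was above it. Of expressed genes 32.4%, 22.1% and 23.8% were called higher with #1, #2 and #3, beside 15, 24 and 30 of the 46 members.

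The median log2 fold change of the 47 members was -0.07 with #1, 0.17 with #2 and 0.33 with #3, beside -0.02, -0.03 and -0.03 over all genes tested. All 3 comparisons share the scramble libraries. In 33, 33 and 39 members the 3 libraries of #1, #2 and #3 lay entirely on one side of the 3 scramble libraries (70.2%, 70.2% and 83.0%), as did 52.9%, 43.3% and 43.4% of all genes. Of these members, 14, 26 and 34 lay above scramble, where 25.6%, 21.3% and 22.0% of all genes did.

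**Figure D1:**
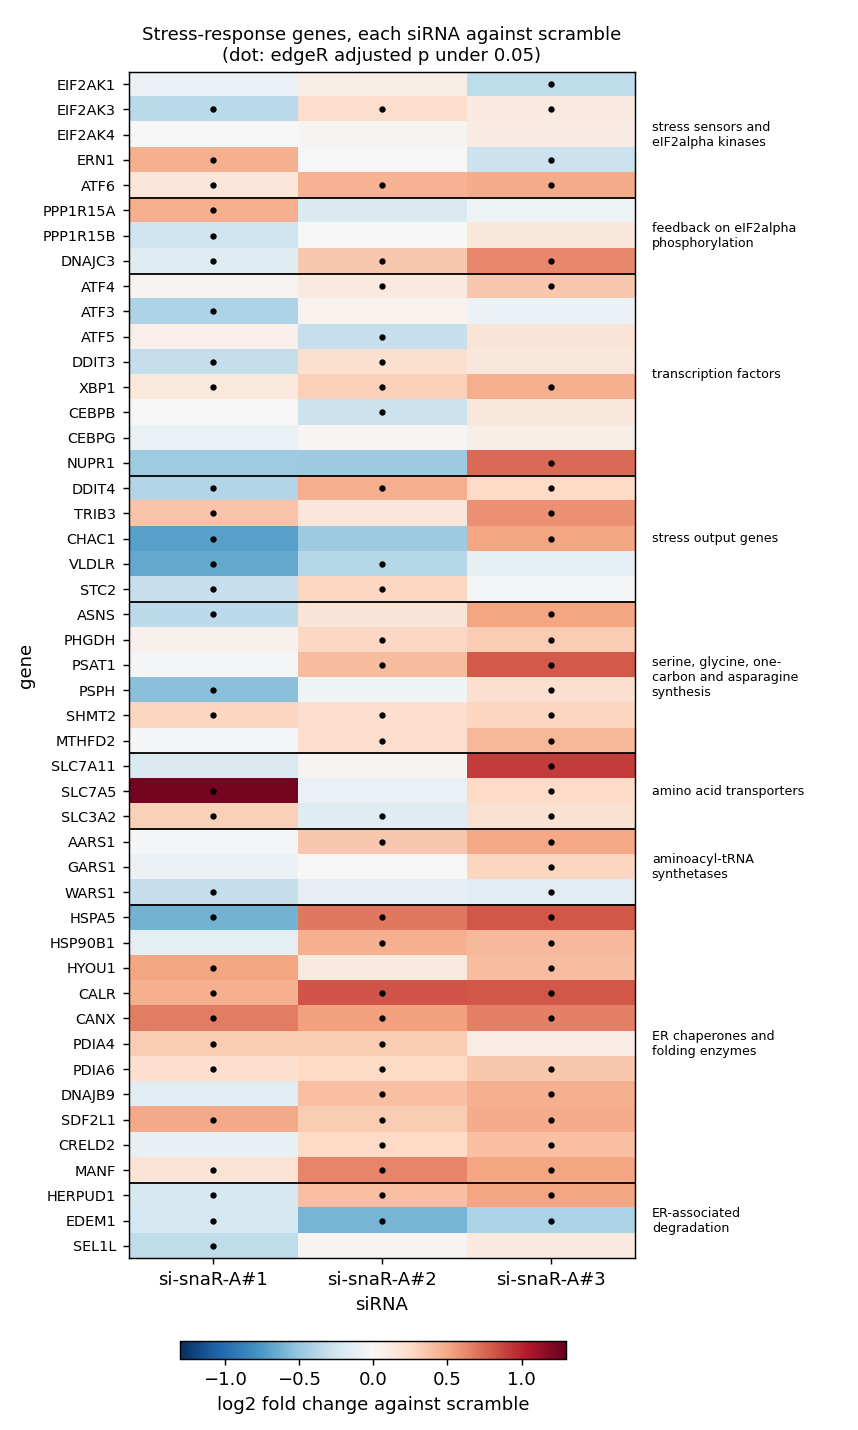
Log2 fold change of each of the 47 genes (rows, grouped by role) with each siRNA against scramble (columns), from 3 libraries against 3, with a dot where the edgeR adjusted p was under 0.05. Among the 11 ER chaperones 7, 10 and 10 were called higher with #1, #2 and #3, while HSPA5 was lower with #1.

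**Figure D2:**
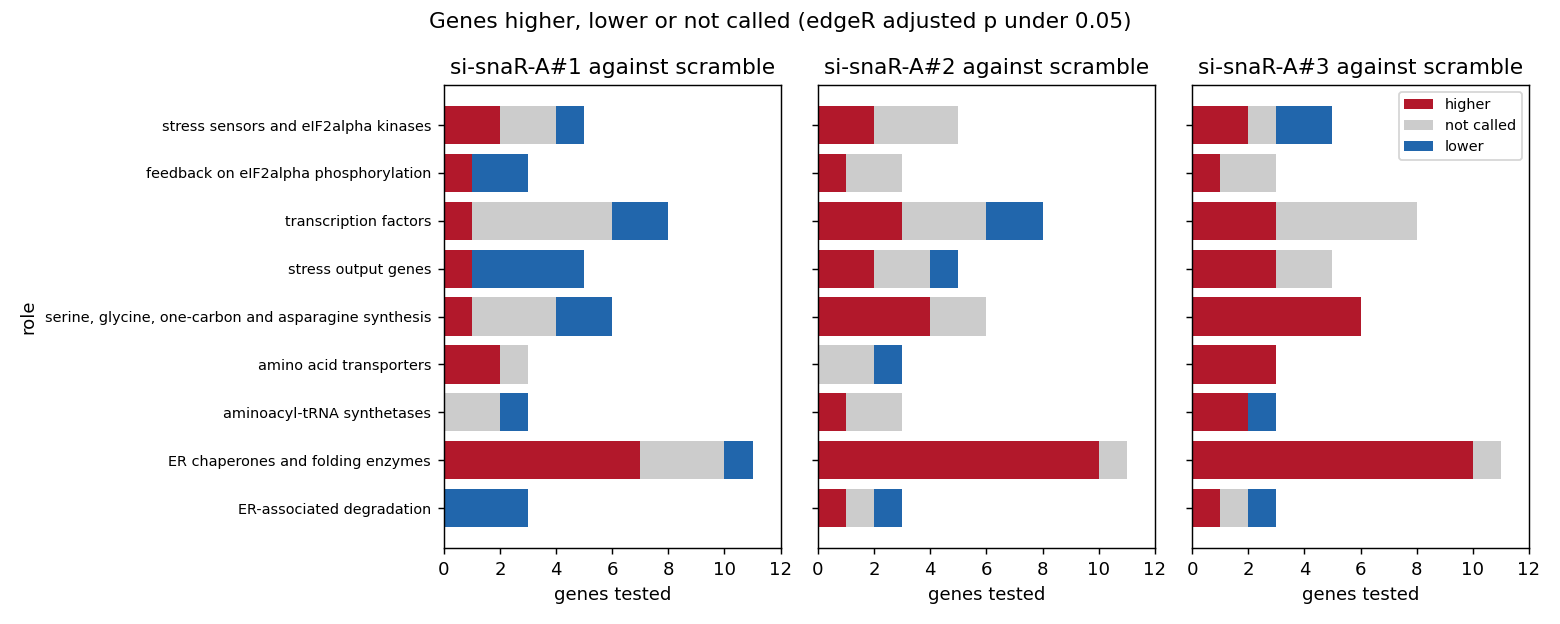
Number of genes in each role (horizontal bars) called higher, called lower or not called with each siRNA against scramble. The 6 serine, one-carbon and asparagine synthesis genes were all higher with #3, and with #1 only 1 of them was.

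ATF6 alone of the 5 stress sensors rose with every siRNA, and EIF2AK3 and ERN1 changed in opposite directions with different siRNAs. ATF6, the ER membrane protein that is cut to release a transcription factor, was at 76.9, 81.4 and 76.4 CPM in scramble, 90.9, 88.1 and 82.6 CPM with #1, 108, 107 and 106 CPM with #2 and 110.04, 112 and 105 CPM with #3. All 9 siRNA libraries lay above the 3 scramble libraries, and those of #2 and #3 overlapped each other. Its log2 fold changes (± SE, as throughout) were 0.16 ± 0.04, 0.45 ± 0.04 and 0.48 ± 0.04 (edgeR adjusted p 0.0086, 8.5e-06 and 4.1e-06).

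EIF2AK3 (PERK), the eIF2alpha kinase of the ER, was lower with #1 and higher with the other siRNAs. It stood at 40.4, 39.3 and 38.8 CPM in scramble, 31.5, 31.3 and 30.3 CPM with #1, 46.6, 46.4 and 45.9 CPM with #2 and 44.3, 43.1 and 42.3 CPM with #3, with no overlap between any of the 4 groups. It fell by 0.35 ± 0.03 log2 units with #1 and rose by 0.23 ± 0.03 and 0.13 ± 0.03 with #2 and #3 (edgeR adjusted p 3.9e-06, 0.00037 and 0.0131). The call with #3 was lost without #3 replicate 1, in edgeR's exact test or with upper quartile scaling (adjusted p 0.0522 to 0.0829). ERN1 (IRE1), the ER kinase and RNase that splices XBP1, showed another order. Its levels were 29.2, 27.5 and 28.6 CPM in scramble, 39.5, 40.1 and 37.9 CPM with #1, 27.5, 29.6 and 28.4 CPM with #2 and 24.2, 25.4 and 20.7 CPM with #3. The #1 libraries were the highest and those of #3 the lowest, and #2 overlapped scramble. ERN1 rose by 0.46 ± 0.06 log2 units with #1 and fell by 0.28 ± 0.06 with #3 (edgeR adjusted p 6.8e-05 and 0.00551), with a log2 fold change of 0.0031 ± 0.06 with #2.

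EIF2AK1 (HRI), the haem-sensing kinase that also relays mitochondrial stress, fell with #3, from 243, 236 and 231 to 188, 185 and 194 CPM, a change of -0.33 ± 0.04 log2 units (edgeR adjusted p 2.2e-05). With #1 and #2 it was at -0.08 ± 0.04 and 0.08 ± 0.04 log2 units and was not called, though every #1 library lay below scramble and every #2 library above it. EIF2AK4 (GCN2), the kinase that senses uncharged tRNA, was called with no siRNA, and its log2 fold changes were 0.0019 ± 0.05, 0.04 ± 0.05 and 0.10 ± 0.05, with all groups overlapping scramble except for #3, whose lowest library was at 117 CPM against 114 CPM in the highest scramble library.

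Of the 3 genes that feed back on eIF2alpha phosphorylation, each was called with #1. PPP1R15A (GADD34), the inducible subunit that directs a phosphatase to eIF2alpha, was at 52.8, 43.4 and 54.4 CPM in scramble and 71.97, 61.6 and 75.00 CPM with #1, without overlap, and at 47.01, 38.1 and 46.9 and 48.4, 46.1 and 49.9 CPM with #2 and #3, which overlapped scramble. It rose by 0.47 ± 0.10 log2 units with #1 (edgeR adjusted p 0.00181). PPP1R15B (CReP), the constitutive counterpart, fell by 0.26 ± 0.06 log2 units with the same siRNA (edgeR adjusted p 0.00253) and was at -0.01 ± 0.06 and 0.15 ± 0.06 with the others. DNAJC3 (p58IPK), an ER co-chaperone known as a PERK inhibitor, was at 51.5, 53.7 and 52.4 CPM in scramble, 49.4, 47.6 and 44.03 CPM with #1, 67.5, 66.6 and 66.5 CPM with #2 and 82.5, 83.4 and 76.9 CPM with #3. The 4 groups were fully separate, with #1 at the bottom and #3 at the top. It fell by 0.16 ± 0.05 log2 units with #1 and rose by 0.35 ± 0.05 and 0.62 ± 0.05 with #2 and #3 (edgeR adjusted p 0.0115, 0.00012 and 8.8e-07). The fall with #1 was not called without #1 replicate 3, in edgeR's exact test or in a fit of only the 2 groups (adjusted p 0.0546 to 0.0706).

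**Figure D3:**
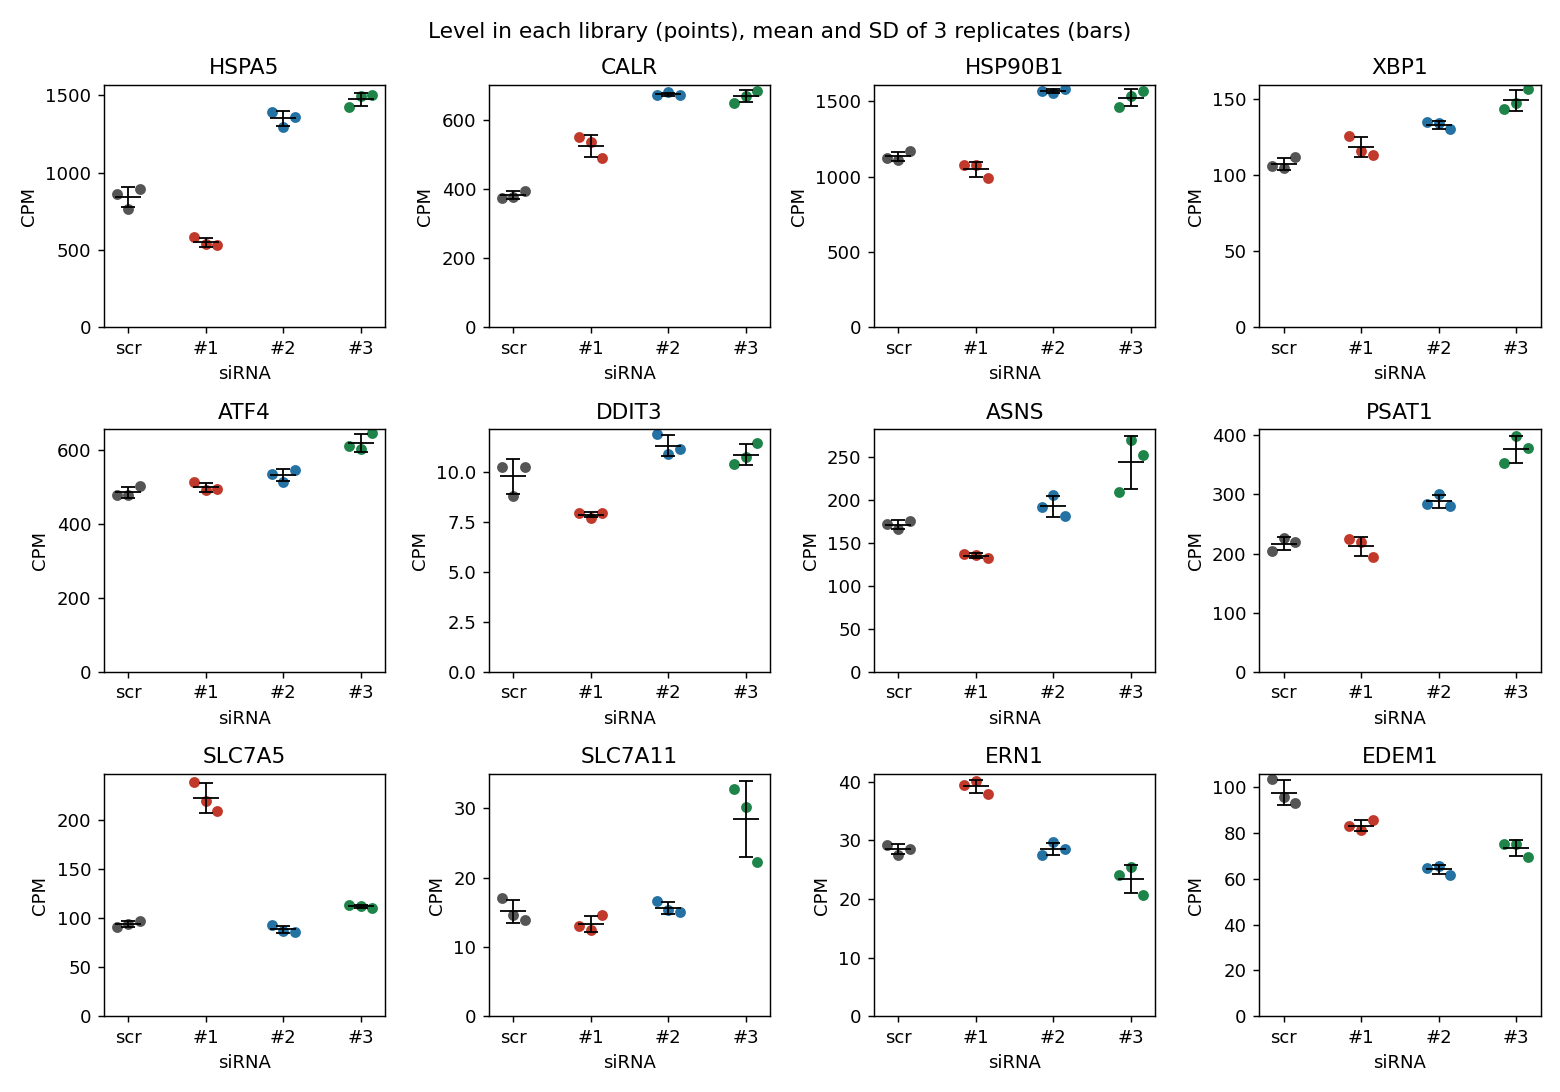
CPM in each library (points, 3 replicates per group) with the group mean and SD, for scramble (scr) and #1, #2 and #3, in 12 genes, each on a linear axis from 0. HSPA5 lies below scramble with #1 and above it with the others, CALR lies above scramble with all 3, and SLC7A5 stands out with #1.

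Among the 8 transcription factors, XBP1 rose with all 3 siRNAs, ATF4 with 2 of them, and CEBPG with none. ATF4, the master factor of the integrated stress response, stood at 478, 479 and 504 CPM in scramble, 514, 493 and 494 CPM with #1, 537, 516 and 547 CPM with #2 and 611, 602 and 648 CPM with #3. Only the #1 libraries overlapped scramble, and those of #3 were the highest. Its mRNA rose by 0.13 ± 0.04 and 0.35 ± 0.04 log2 units with #2 and #3 (edgeR adjusted p 0.0373 and 5.1e-05) and was at 0.04 ± 0.04 with #1. The smaller of the rises lost its call without #2 replicate 1 or 3 or scramble replicate 1 or 2, with no filter or with upper quartile scaling (adjusted p 0.104 to 0.134). XBP1, the factor made active by IRE1 splicing and itself a carrier of an ERSE, was at 106, 104 and 112 CPM in scramble, 126, 116 and 113 CPM with #1, 135, 134 and 129.98 CPM with #2 and 143, 148 and 157 CPM with #3. All siRNA libraries were above scramble, in the order #1, #2, #3 with no overlap. The rises were 0.14 ± 0.05, 0.31 ± 0.05 and 0.47 ± 0.05 log2 units (edgeR adjusted p 0.0283, 0.00042 and 1.2e-05), and that with #1 was not called without #1 replicate 1 or scramble replicate 1 or 2 or with no filter (adjusted p 0.0661 to 0.126).

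DDIT3 and ATF3, factors linked to acute and prolonged stress, were both lower with #1. DDIT3 (CHOP), which promotes apoptosis, was at 10.2, 8.77 and 10.2 CPM in scramble, 7.93, 7.70 and 7.93 CPM with #1, 11.9, 10.9 and 11.1 CPM with #2 and 10.4, 10.7 and 11.4 CPM with #3, lowest with #1 and slightly above scramble in every library of #2 and #3. It fell by 0.31 ± 0.07 log2 units with #1 and rose by 0.21 ± 0.07 with #2 (edgeR adjusted p 0.00322 and 0.0484), and was at 0.15 ± 0.07 with #3. The rise was borderline and was lost without #1 replicate 1 or #2 replicate 1 or 2 or 3 or #3 replicate 1 or 2 or scramble replicate 1 or 2, in edgeR's exact test, with no filter, in a fit of only the 2 groups, with a replicate block or with upper quartile scaling (adjusted p 0.0501 to 0.183). ATF3, an early stress-induced repressor and activator, fell with #1, from 138, 116 and 144 to 107, 88.6 and 104 CPM or -0.41 ± 0.09 log2 units (edgeR adjusted p 0.00203), and was at 0.05 ± 0.09 and -0.08 ± 0.09 with #2 and #3.

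ATF5, a factor translated under stress like ATF4, fell by 0.30 ± 0.10 log2 units with #2 (edgeR adjusted p 0.0424), a call lost without #1 replicate 2 or 3 or #2 replicate 2 or 3 or scramble replicate 1 or 2 or 3, with RLE scaling, in edgeR's exact test, with no filter or with a replicate block (adjusted p 0.0553 to 0.158). CEBPB, a partner of CHOP and ATF4, fell by 0.28 ± 0.07 with the same siRNA (edgeR adjusted p 0.013), a call lost without #2 replicate 3 or scramble replicate 3 (adjusted p 0.0591 to 0.0688). With #1 and #3, ATF5 was at 0.06 ± 0.10 and 0.17 ± 0.10 and CEBPB at -0.0046 ± 0.07 and 0.15 ± 0.07 log2 units. CEBPG, another partner of ATF4, was at -0.09 ± 0.05, 0.02 ± 0.05 and 0.08 ± 0.05 log2 units with the 3 siRNAs. NUPR1, a small stress-induced chromatin protein, was scarce, at 0.774, 0.937 and 0.99 CPM in scramble, 0.684, 0.599 and 0.669 CPM with #1, 0.656, 0.789 and 0.499 CPM with #2 and 1.28, 1.71 and 1.52 CPM with #3. The #3 libraries were above scramble, those of #1 below it and those of #2 overlapping it, and with #3 the change was a rise of 0.74 ± 0.18 log2 units (edgeR adjusted p 0.00699). The log2 fold changes of -0.47 ± 0.18 and -0.47 ± 0.18 with #1 and #2 were not called. ATF5, DDIT3 and NUPR1 each share exon sequence with another annotated gene on the same strand, so reads could have been split between them.

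The 11 ER chaperones and folding enzymes were the largest of the role groups. Of them 7 rose and 1 fell with #1, and 10 rose and none fell with either #2 or #3, with median log2 fold changes of 0.22, 0.39 and 0.46. HSPA5 (BiP), the main ER chaperone and the usual gauge of ER stress, was at 859.99, 767 and 895 CPM in scramble, 583, 539.7 and 529 CPM with #1, 1395, 1295 and 1359 CPM with #2 and 1424, 1494 and 1503 CPM with #3. No group overlapped another, and #1 lay below scramble and the other siRNAs above it. It fell by 0.61 ± 0.06 log2 units with #1 and rose by 0.68 ± 0.06 and 0.81 ± 0.06 with #2 and #3 (edgeR adjusted p 3e-06, 4.5e-06 and 9.4e-07).

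CALR (calreticulin), a lectin chaperone that folds glycoproteins, rose with every siRNA. Its levels were 374, 376 and 396 CPM in scramble, 549.9, 537 and 489 CPM with #1, 672, 680.3 and 674 CPM with #2 and 651, 670.4 and 685 CPM with #3. All siRNA libraries lay above scramble and #2 and #3 above #1, with rises of 0.46 ± 0.05, 0.82 ± 0.05 and 0.81 ± 0.05 log2 units (edgeR adjusted p 3.9e-06, 1.4e-07 and 1.3e-07). CANX (calnexin), its membrane-bound relative, was at 88.97, 100.4 and 91.1 CPM in scramble, 163, 147 and 134 CPM with #1, 123, 127 and 154 CPM with #2 and 158, 148 and 136 CPM with #3. The siRNA groups overlapped each other and not scramble, and the rises were 0.66 ± 0.09, 0.53 ± 0.09 and 0.66 ± 0.09 log2 units (edgeR adjusted p 6.4e-05, 0.00096 and 0.00016).

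HSP90B1 (GRP94), the ER form of HSP90, was at 1127, 1108 and 1170.4 CPM in scramble and 1075, 1081 and 991 CPM with #1, a log2 fold change of -0.11 ± 0.04 that was not called. It was at 1568, 1558 and 1580.00 CPM with #2 and 1462, 1536 and 1572 CPM with #3, all above scramble, rises of 0.47 ± 0.05 and 0.42 ± 0.04 log2 units (edgeR adjusted p 1.1e-05 and 1.8e-05). DNAJB9 (ERdj4) is a co-chaperone of BiP, and CRELD2 and MANF are secreted proteins induced by ER stress. DNAJB9 rose by 0.39 ± 0.06 and 0.46 ± 0.06 log2 units with #2 and #3 and was at -0.13 ± 0.06 with #1. CRELD2 rose by 0.26 ± 0.04 and 0.39 ± 0.04 and was at -0.09 ± 0.04 with #1, not called but below scramble in every library. MANF rose by 0.63 ± 0.06 and 0.52 ± 0.06 and, with #1, by 0.17 ± 0.06, a call lost without #1 replicate 1 or 2 or scramble replicate 1 or 2 (adjusted p 0.058 to 0.102).

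The remaining chaperones were higher with #1 as well. SDF2L1, a BiP cofactor, was at 14.9, 15.7 and 15.2 CPM in scramble and rose by 0.49 ± 0.05, 0.33 ± 0.06 and 0.49 ± 0.05 log2 units with #1, #2 and #3. PDIA6, a disulfide isomerase, rose by 0.22 ± 0.05, 0.25 ± 0.05 and 0.35 ± 0.06, and PDIA4, another isomerase, rose by 0.33 ± 0.05 and 0.33 ± 0.05 and was at 0.10 ± 0.05 with #3. HYOU1 (GRP170), a large chaperone that recharges BiP, varied most between replicates in this group. It was at 38.3, 32.3 and 41.7 CPM in scramble, 48.9, 50.4 and 60.7 CPM with #1, 41.4, 35.7 and 45.6 CPM with #2 and 50.6, 52.6 and 45.1 CPM with #3. It rose by 0.51 ± 0.11 and 0.40 ± 0.11 log2 units with #1 and #3 (edgeR adjusted p 0.0022 and 0.0163), and the rise with #3 was not called without #3 replicate 2 or scramble replicate 2 (adjusted p 0.0643 to 0.0675). HSP90B1 and CANX share exon sequence with another annotated gene on the same strand.

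Of the 10 members whose promoter windows are printed above for ERSE or ERSE-II, 8 are in the chaperone group and the others are XBP1 and HERPUD1. With #1, 6 of them were higher and 2 lower, with #2 9 were higher, and with #3 all 10 were, at median log2 fold changes of 0.18, 0.36 and 0.48. For the 32 members with a promoter and neither element, 8, 14 and 17 were higher and 13, 5 and 3 lower, at medians of -0.05, 0.09 and 0.18. The 9 carriers of CARE had 1, 2 and 6 higher and 5, 1 and 0 lower, at medians of -0.21, 0.02 and 0.28. For the 33 members with a promoter and no CARE, 13, 21 and 21 were higher and 10, 4 and 3 lower. Their medians were 0.0019, 0.25 and 0.35, so the median of the CARE carriers was the lower one with every siRNA. The group without CARE held every carrier of ERSE or ERSE-II except HERPUD1, so the 2 comparisons are not separate. Only exact letters in the searched window counted, so targets of ATF4 may lie in that group.

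The 3 genes of ER-associated degradation were all lower with #1 and diverged with the others. HERPUD1, a scaffold of the degradation complex, was at 66.6, 61.4 and 67.8 CPM in scramble, 61.6, 52.7 and 54.7 CPM with #1, 85.1, 82.8 and 88.3 CPM with #2 and 93.7, 86.9 and 98.2 CPM with #3, with #1 overlapping scramble and the others above. It fell by 0.21 ± 0.06 log2 units with #1 and rose by 0.39 ± 0.06 and 0.51 ± 0.06 with #2 and #3 (edgeR adjusted p 0.0145, 0.00059 and 6.2e-05). The fall lost its call without #1 replicate 2 or scramble replicate 3 or in a fit of only the 2 groups (adjusted p 0.0548 to 0.0629). EDEM1, which marks misfolded glycoproteins for disposal and is a known XBP1 target, was lower with all 3 siRNAs. Its levels were 104, 95.7 and 93.2 CPM in scramble, 83.00, 81.1 and 85.6 CPM with #1, 64.6, 65.7 and 61.8 CPM with #2 and 75.4, 75.3 and 69.4 CPM with #3. No siRNA library reached scramble, and EDEM1 fell by 0.23 ± 0.05, 0.61 ± 0.05 and 0.41 ± 0.05 log2 units (edgeR adjusted p 0.00172, 2.3e-06 and 4.3e-05). SEL1L, the adaptor of the HRD1 ligase, fell by 0.33 ± 0.05 log2 units with #1 and was at 0.04 ± 0.05 and 0.13 ± 0.05 with the others.

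The 6 genes of serine, glycine, one-carbon and asparagine synthesis are ATF4 targets in many cells. With #3 all 6 rose, with #2 4 rose and none fell, and with #1 1 rose and 2 fell, at median log2 fold changes of 0.38, 0.22 and -0.02. PSAT1, a transaminase of serine synthesis, was at 205, 227 and 219 CPM in scramble, 224, 219 and 194 CPM with #1, 284, 301 and 281 CPM with #2 and 353, 399 and 378 CPM with #3. The #1 libraries overlapped scramble and the others rose in 2 separate steps, by 0.41 ± 0.06 and 0.80 ± 0.06 log2 units (edgeR adjusted p 0.00035 and 1.6e-06). ASNS, the asparagine synthetase, was at 172, 166 and 176 CPM in scramble, 137, 136 and 132 CPM with #1, 191, 205 and 181 CPM with #2 and 209.6, 269.96 and 252 CPM with #3. It fell by 0.34 ± 0.08 log2 units with #1 and rose by 0.51 ± 0.08 with #3 (edgeR adjusted p 0.00246 and 0.00026), each without overlap with scramble, and was at 0.17 ± 0.08 with #2. It shares exon sequence with another annotated gene on the same strand.

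PSPH, the last enzyme of serine synthesis, fell by 0.55 ± 0.04 log2 units with #1, from 31.3, 31.98 and 30.7 to 22.2, 21.8 and 20.3 CPM, and rose by 0.21 ± 0.04 with #3, to 36.4, 34.8 and 37.2 CPM (edgeR adjusted p 6.9e-07 and 0.00374). PHGDH, the first enzyme of that path, and MTHFD2, a mitochondrial folate enzyme, rose with #2 and #3. Their rises were 0.27 ± 0.06 and 0.33 ± 0.06 log2 units for PHGDH and 0.23 ± 0.06 and 0.43 ± 0.06 for MTHFD2, and with #1 they were at 0.05 ± 0.06 and -0.02 ± 0.06. SHMT2, which makes glycine in mitochondria, was the member of this group that rose with all 3 siRNAs, by 0.28 ± 0.05, 0.22 ± 0.05 and 0.28 ± 0.05 log2 units.

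The amino acid transporters held the largest rise of the list with #1 and with #3. SLC7A5 (LAT1), which imports large neutral amino acids, was at 90.8, 93.96 and 97.2 CPM in scramble, 239, 219 and 208 CPM with #1, 92.5, 86.5 and 86.2 CPM with #2 and 114, 112 and 110.2 CPM with #3. The #1 libraries were far above all others, and #3 was slightly above scramble without overlap. It rose by 1.24 ± 0.05 log2 units with #1 and 0.25 ± 0.05 with #3 (edgeR adjusted p 2.8e-09 and 0.00222), and was at -0.09 ± 0.05 with #2. Its heavy-chain partner SLC3A2 (CD98) was at 91.1, 90.9 and 96.4 CPM in scramble, 121, 112 and 112 CPM with #1, 87.98, 81.3 and 80.2 CPM with #2 and 105, 106 and 109.5 CPM with #3. It rose by 0.31 ± 0.05 and 0.20 ± 0.05 log2 units with #1 and #3 and fell by 0.16 ± 0.05 with #2 (edgeR adjusted p 0.00012, 0.00544 and 0.0233). The fall was lost without #2 replicate 2 or 3 or scramble replicate 3 or with RLE scaling (adjusted p 0.0517 to 0.14).

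SLC7A11 (xCT), the cystine importer that feeds glutathione synthesis and also pairs with SLC3A2, was called with #3 and with neither of the other siRNAs. It was at 17.04, 14.5 and 13.9 CPM in scramble, 12.96, 12.4 and 14.5 CPM with #1, 16.6, 15.3 and 14.97 CPM with #2 and 32.8, 30.1 and 22.2 CPM with #3. The #3 libraries were above all 9 others but spread widely, and the rise was 0.90 ± 0.12 log2 units (edgeR adjusted p 0.00014). With #1 and #2 the log2 fold changes were -0.19 ± 0.12 and 0.04 ± 0.12.

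The 3 tRNA synthetases of the list each had their own pattern. AARS1, which charges alanine tRNA, was at 308, 305 and 313 CPM in scramble, 316, 303 and 295 CPM with #1, 401, 388 and 390.2 CPM with #2 and 439, 440.1 and 434 CPM with #3, with #1 overlapping scramble and the others above it in 2 steps. It rose by 0.35 ± 0.04 and 0.50 ± 0.04 log2 units with #2 and #3 (edgeR adjusted p 1.7e-05 and 6.5e-07). GARS1, for glycine, rose by 0.28 ± 0.04 with #3 and was at -0.07 ± 0.04 and -0.01 ± 0.04 with #1 and #2. WARS1, for tryptophan, fell by 0.31 ± 0.05 log2 units with #1 and 0.14 ± 0.05 with #3, and was at -0.11 ± 0.05 with #2. Its call with #3 (edgeR adjusted p 0.0408) did not survive without #1 replicate 2 or #2 replicate 1 or 2 or 3 or #3 replicate 1 or 3 or scramble replicate 2 or 3, in DESeq2, with RLE scaling, in edgeR's exact test, with no filter or in a fit of only the 2 groups (adjusted p 0.0534 to 0.145).

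Of the 5 stress output genes tested, 4 fell and 1 rose with #1, 2 rose and 1 fell with #2, and 3 rose with #3. CHAC1, a glutathione-degrading ATF4 target, was near the floor of expression at 1.41, 1.81 and 1.63 CPM in scramble, 1.02, 0.943 and 0.993 CPM with #1, 1.19, 1.26 and 1.05 CPM with #2 and 2.09, 2.97 and 1.85 CPM with #3. All 3 libraries of #1 and of #2 lay below scramble and those of #3 above it. It fell by 0.71 ± 0.17 log2 units with #1 and rose by 0.51 ± 0.17 with #3 (edgeR adjusted p 0.00443 and 0.0359), and was at -0.47 ± 0.17 with #2. Its rise was lost without #3 replicate 2 or scramble replicate 1 or 3, in edgeR's exact test, in a fit of only the 2 groups or with upper quartile scaling (adjusted p 0.0548 to 0.178).

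DDIT4 (REDD1), an inhibitor of mTORC1, was at 217, 218 and 243 CPM in scramble, 169.8, 193 and 158 CPM with #1, 298, 336 and 306 CPM with #2 and 241, 293 and 275 CPM with #3. It was lowest with #1 and highest with #2, and #3 overlapped scramble. It fell by 0.38 ± 0.08 log2 units with #1 and rose by 0.47 ± 0.08 and 0.26 ± 0.08 with the others (edgeR adjusted p 0.00258, 0.00124 and 0.0378). The rise with #3 was not called without #3 replicate 2 or 3 or scramble replicate 1 or 2 or with upper quartile scaling (adjusted p 0.0758 to 0.153). VLDLR, a lipoprotein receptor induced by PERK signalling, was at 36.3, 37.8 and 39.3 CPM in scramble. It was at 22.9, 25.5 and 23.03 CPM with #1, 27.7, 32.2 and 28.1 CPM with #2 and 33.4, 35.2 and 36.07 CPM with #3. Every siRNA library was below scramble, those of #3 only slightly. It fell by 0.67 ± 0.06 and 0.37 ± 0.06 log2 units with #1 and #2 (edgeR adjusted p 2.6e-06 and 0.00093). With #3 it was at -0.12 ± 0.06 and was not called. TRIB3, a pseudokinase that restrains ATF4 and CHOP, rose by 0.37 ± 0.07 and 0.59 ± 0.07 with #1 and #3 and was at 0.16 ± 0.07 with #2. STC2, a secreted glycoprotein, fell by 0.30 ± 0.05 with #1, rose by 0.27 ± 0.05 with #2 and was at -0.01 ± 0.05 with #3.

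Averaged over the 3 siRNAs, 29 members (61.7%) were called against scramble, 24 higher and 5 lower, where 32.2% of all genes were called (15.6% higher and 16.6% lower). Among the 14538 genes averaging 1 CPM or more, tested alone, 7041 were called, beside 29 of 46 members (63.0%). In this average all 11 ER chaperones were higher, at a median log2 fold change of 0.29, beside 0.17 for the 47 members and -0.04 for all genes. The siRNAs did not all share that rise. With #1 singly, 7 chaperones were called higher, HSPA5 was called lower (-0.61 ± 0.06) and 3 were not called. With #2 and with #3, 10 were called higher. The largest averaged rises were those of CALR (0.70 ± 0.04), CANX (0.62 ± 0.08), SLC7A5 (0.47 ± 0.04), MANF (0.44 ± 0.05) and SDF2L1 (0.44 ± 0.05), on the log2 scale. SLC7A5 had a log2 fold change of 1.24 ± 0.05 with #1 alone. The 5 that fell were EDEM1 (-0.42 ± 0.04), VLDLR (-0.38 ± 0.05), WARS1 (-0.18 ± 0.04), PSPH (-0.13 ± 0.04) and EIF2AK1 (-0.11 ± 0.03). Of these, EDEM1 alone was called lower with each siRNA. VLDLR was called lower with #1 and #2, WARS1 with #1 and #3 and EIF2AK1 with #3, while PSPH was called lower with #1 and higher with #3. In the averaged contrast PSPH lost its call without scramble replicate 2 (adjusted p 0.0737) and EIF2AK1 without scramble replicate 1 or with no filter (adjusted p 0.062 to 0.0775).

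The siRNAs were also set directly against each other, in contrasts that use no scramble library. Between #1 and the mean of #2 and #3, 38 members (80.9%) differed, 7 higher and 31 lower with #1, where 52.0% of all genes differed (26.5% higher and 25.5% lower). The median log2 difference was -0.33 over the members and 0.03 over all genes. Among the 14538 genes averaging 1 CPM or more, tested alone, 9896 differed, beside 38 of 46 members (82.6%). The largest negative differences were those of HSPA5 (-1.36 ± 0.05), DDIT4 (-0.74 ± 0.08), CHAC1 (-0.73 ± 0.15), ASNS (-0.68 ± 0.07) and SLC7A11 (-0.66 ± 0.11). The largest positive ones were those of SLC7A5 (1.16 ± 0.04), ERN1 (0.60 ± 0.05), PPP1R15A (0.60 ± 0.08), SLC3A2 (0.29 ± 0.04) and EDEM1 (0.28 ± 0.04). Singly, 46.7% of all genes differed between #1 and #2 and 48.6% between #1 and #3. By edgeR's test the adjusted p was 1e-09 for HSPA5 and 5.6e-10 for SLC7A5.

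Between #2 and #3, whose sequences nearly coincide, 23 members (48.9%) differed, 4 higher and 19 lower with #2, where 15.6% of all genes differed (6.52% higher and 9.03% lower). The median log2 difference was -0.13 over the members and -0.01 over all genes. Among the 14538 genes averaging 1 CPM or more, tested alone, 3911 differed, beside 25 of 46 members (54.3%). All 3 transporters and 4 of the 6 synthesis genes were lower with #2 than with #3, among them SLC7A11 (-0.86 ± 0.12 log2 units), PSAT1 (-0.39 ± 0.06), SLC3A2 (-0.36 ± 0.05) and SLC7A5 (-0.34 ± 0.05). Of the 11 chaperones 1 differed, PDIA4 (0.23 ± 0.05), and HSPA5 and CALR were at -0.13 ± 0.06 and 0.01 ± 0.05. ATF4 was lower with #2 by 0.22 ± 0.04 log2 units (edgeR adjusted p 0.00371), and NUPR1 (-1.21 ± 0.18) and CHAC1 (-0.99 ± 0.17), both scarce, had the largest differences.

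**Figure D4:**
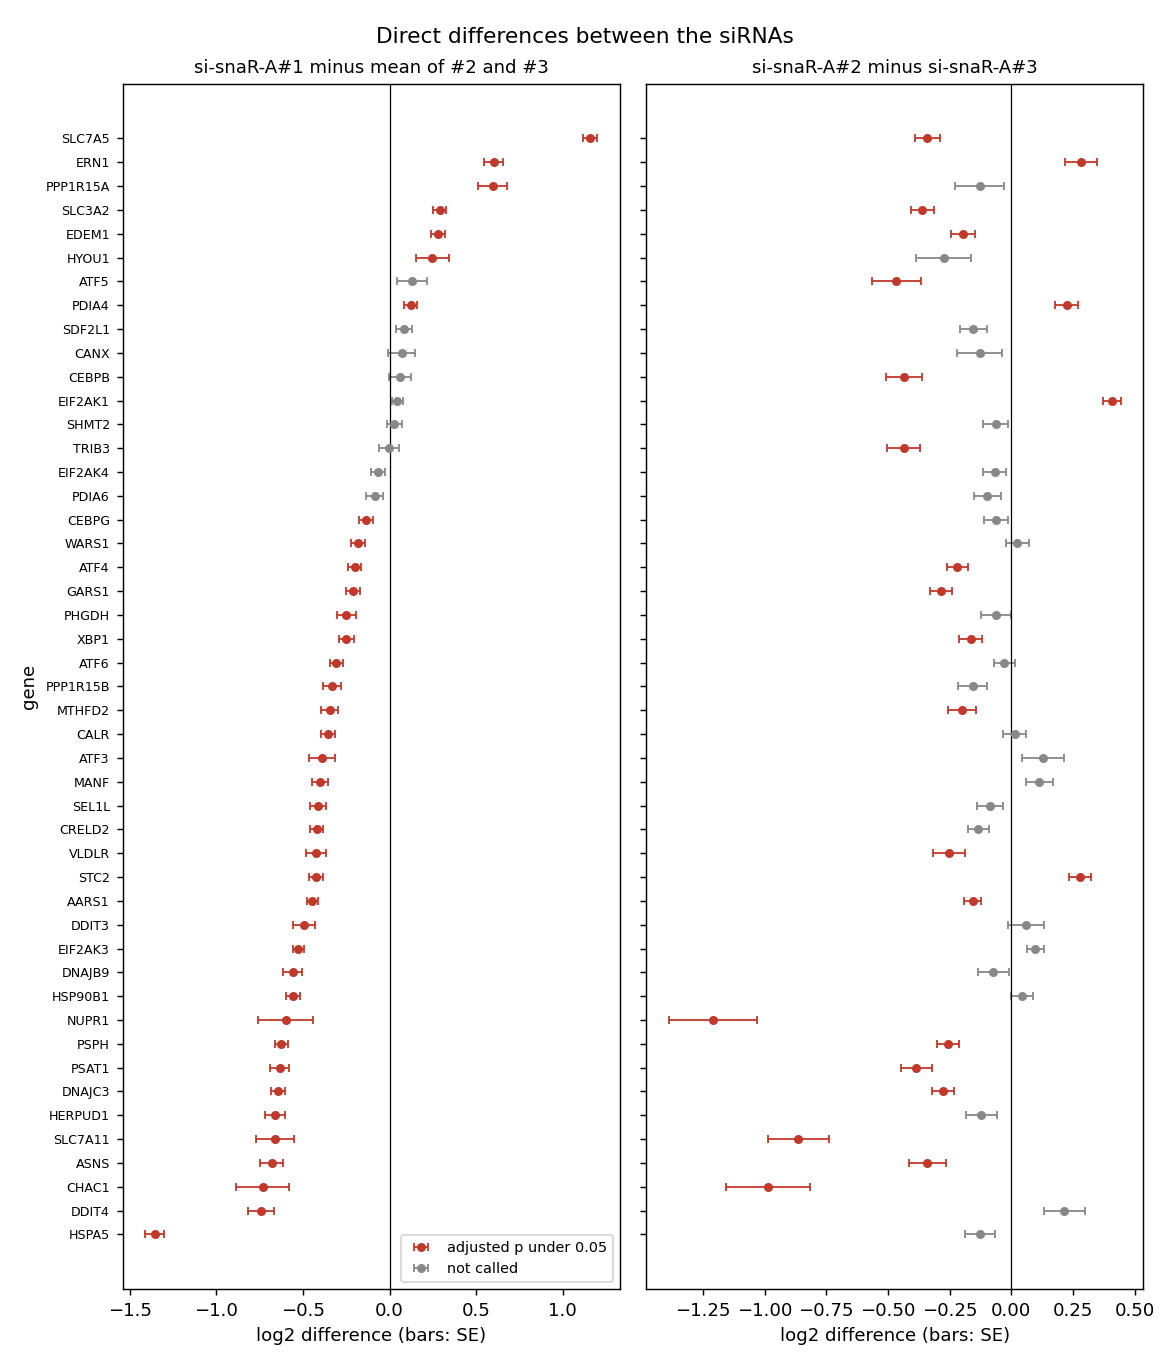
Log2 difference of each gene (points, with SE bars) between #1 and the mean of #2 and #3 (left) and between #2 and #3 (right), sorted by the left panel and coloured by the edgeR call. Most points on the left are below 0, from HSPA5 at -1.36 up to SLC7A5 at 1.16.

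A further 98 genes of these pathways were looked up, of which 97 had a row and 96 were tested, FGF21 being too low. With #1, 28 of them were higher and 30 lower, with #2 35 and 5, and with #3 53 and 9, at median log2 fold changes of -0.04, 0.07 and 0.18. Called shares were 60.4%, 41.7% and 64.6%, beside the 45.2%, 25.8% and 29.4% of all genes given above. Of the genes averaging 1 CPM or more, tested alone, 62.2%, 40.3% and 44.6% were called. The shares with #1 and #2 were thus near those of expressed genes in general, and the share with #3 was above. PCK2 was not analysed here. Of the 17 other cytosolic tRNA synthetases 4, 8 and 13 were higher and 6, 0 and 0 lower. With #1 they split widely, with VARS1, for valine, rising by 0.84 ± 0.06 log2 units and RARS1, for arginine, falling by 0.78 ± 0.03. Of 30 other genes of ER folding, translocation and degradation 10, 12 and 19 were higher and 10, 0 and 4 lower. SIL1, a BiP nucleotide exchange factor, was at 15.3, 15.7 and 15.9 CPM in scramble and 23.4, 25.1 and 24.6 CPM with #3, a rise of 0.64 ± 0.06 log2 units. ERO1A, the ER oxidase, and P4HB, the founding disulfide isomerase, rose with all 3 siRNAs, by 0.45 ± 0.05, 0.69 ± 0.05 and 0.42 ± 0.05 and by 0.34 ± 0.05, 0.49 ± 0.05 and 0.59 ± 0.05 log2 units.

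SEC61B, a subunit of the ER translocon, was at 62.97, 62.2 and 66.2 CPM in scramble and 36.8, 35.6 and 33.4 CPM with #1, a fall of 0.86 ± 0.05 log2 units (edgeR adjusted p 5e-08). UFM1, a ubiquitin-like modifier that acts at the ER, fell by 0.74 ± 0.04 with #1 and 0.35 ± 0.04 with #3. DERL3, an ER degradation factor, rose by 1.11 ± 0.14 log2 units with #1 and 0.47 ± 0.14 with #2, from 2.50, 2.19 and 2.46 CPM in scramble. CREB3L2, an ATF6-like factor, rose by 0.57 ± 0.05 and 0.56 ± 0.05 with #2 and #3. Of the 12 other output genes tested 2, 2 and 1 were higher and 6, 2 and 3 lower. HMOX1, the haem oxygenase, fell by 0.77 ± 0.07 and 0.61 ± 0.06 log2 units with #1 and #2, NDRG1, a stress-responsive cytosolic protein, by 0.57 ± 0.06 with #3, and the transporter SLC1A4 by 0.31 ± 0.07 with #2. Among 17 other genes of amino acid synthesis and transport 8, 7 and 10 were higher and 2, 1 and 1 lower, and among 20 other sensors and subunits of eIF2 and eIF2B 4, 6 and 10 were higher and 6, 2 and 1 lower.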

How the data were processed

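RNA of 12 HEK293T libraries was depleted of rRNA, enriched for poly(A)+ RNA and made into stranded libraries, per the labels. The authors trimmed reads with Trim Galore, quantified them with Salmon and deposited estimated counts for each Ensembl gene, not scaled to a common depth, on hg38, and whether strand was used is not given in the sources used here. Those estimated counts were rounded. Symbols came from GENCODE release 44, and 58160 of 63541 IDs matched. Genes passed edgeR's filterByExpr (21999 genes), were scaled by TMM and were tested in a model of 4 group means with edgeR 4.0.16 (R 4.3.3; quasi-likelihood F test, Benjamini-Hochberg over all genes tested, called at an adjusted p under 0.05). Each SE was derived from the log2 fold change and its F statistic. CPM used TMM library sizes, and within-group SDs were taken on log2(CPM + 0.5). Code was tested on simulated data.

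The members, roles, lists and tests were chosen with earlier results of these data known. Named were all sensors and transcription factors, the 5 largest called rises and falls per contrast with scramble and between si-snaR-A#1 and the mean of the others, members called in opposite directions by siRNAs that also differed directly, and, of the other pathway genes, the 2 largest rises and falls per siRNA with a mean of at least 1 CPM. Other members appear with their role. Alternatives were RLE and upper quartile scaling, no filter, a minimum mean of 1 CPM, DESeq2 1.42.0, edgeR's exact test, fits of only the groups compared, a replicate block and leaving out each library. Motifs were searched in the RefSeq promoter table. Of the members, 24 share exon sequence with another annotated gene, 6 of them on the same strand.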

Additional observations from a re-analysis of the deposited data

Results flagged for a closer look

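Some genes were called in opposite directions against scramble by 2 siRNAs and also differed between those siRNAs in edgeR's direct test. All differences are on the log2 scale, and no explanation was tested for any of them.

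Between si-snaR-A#1 (#1) and #2, 8 genes met this. HSPA5 differed by -1.29 ± 0.06 and was lower in 3 of 3 #1 libraries than in any of #2 (edgeR adjusted p 5.9e-09). The differences were -0.85 ± 0.09 for DDIT4, -0.60 ± 0.06 for HERPUD1 and -0.58 ± 0.03 for EIF2AK3. They were -0.57 ± 0.05 for STC2, -0.52 ± 0.07 for DDIT3 and -0.51 ± 0.05 for DNAJC3. SLC3A2 was the exception in sign, at 0.47 ± 0.05.

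Between #1 and #3, 9 genes met it. HSPA5 differed by -1.42 ± 0.06, CHAC1 by -1.22 ± 0.17 and ASNS by -0.85 ± 0.08 (edgeR adjusted p 2.2e-09, 6.8e-05 and 1.2e-06). DNAJC3 differed by -0.78 ± 0.05, PSPH by -0.75 ± 0.04, HERPUD1 by -0.72 ± 0.06, DDIT4 by -0.635 and EIF2AK3 by -0.48 ± 0.03. ERN1 was higher with #1, by 0.74 ± 0.06.

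Between #2 and #3 only SLC3A2 met it, with a difference of -0.36 ± 0.05. The call of DDIT3 and of SLC3A2 against scramble with #2, of DNAJC3 and HERPUD1 with #1, and of CHAC1, DDIT4 and EIF2AK3 with #3 was lost under some alternatives, as stated beside their values.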

How the results depend on the processing

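The number of members called stayed within 1.5 times its value under every alternative run. Leaving out 1 library at a time gave 29 to 32 called with #1, 24 to 30 with #2, 32 to 36 with #3, 27 to 30 in their mean, 35 to 38 between #1 and the others and 19 to 25 between #2 and #3. Over all genes tested, replicate numbers showed little pairing of the libraries. Deviations of same-numbered libraries correlated between -0.189 and 0.14 over 18 pairs, of which 3 were over 0.1. Such a correlation cannot exclude pairing in single genes. In PPP1R15A, PPP1R15B and HERPUD1 replicate 2 was the lowest library in each of the 4 groups, and other members were not counted. With the replicate number as a block, 31, 29, 36, 29, 38 and 23 members were called in these 6 comparisons. Of 135 calls of named members, 112 were kept in every alternative run, 23 were lost in at least 1, and none changed direction. DESeq2 lost 1 of the 135, RLE scaling 4, upper quartile scaling 7, no filter 8 and the block 3. Calls lost and not described above were those of HYOU1 averaged over the siRNAs, lost without scramble replicate 2 (adjusted p 0.0814), and between #1 and the others, lost without #1 replicate 2 or 3 or #2 replicate 1 or 2 or #3 replicate 1 or 3 or scramble replicate 1 or with RLE scaling (adjusted p 0.0515 to 0.301). SLC3A2 averaged over the siRNAs lost its call without scramble replicate 1 or 2, with no filter or with upper quartile scaling (adjusted p 0.0537 to 0.13), and CEBPG between #1 and the others without #1 replicate 2, with a minimum mean of 1 CPM or with upper quartile scaling (adjusted p 0.0687 to 0.136). Between #2 and #3, EDEM1 lost its call without #2 replicate 3 or #3 replicate 1 or 2 (adjusted p 0.0569 to 0.0705), VLDLR without #2 replicate 1 or 3 or #3 replicate 2 or 3 (adjusted p 0.0561 to 0.0759) and XBP1 without #1 replicate 2 or #2 replicate 1 or 2 or 3 or #3 replicate 2 or 3, with no filter or with a replicate block (adjusted p 0.0514 to 0.118). The cause was not tested.

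NUPR1 and CHAC1, the scarcest of the members tested, had the largest SEs against scramble, 0.17 to 0.18 log2 units. A siRNA effect cannot be told apart from an effect of losing snaR-A, where the siRNAs differ or where they agree. Their target positions overlap, and the extent of knockdown was not read from these counts. The 3 siRNAs share 3 scramble libraries, so a shift of those libraries moves all 3 comparisons alike.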
